A study of Homo sapiens with 12 samples.

Results

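The PAX genes encode transcription factors that bind DNA through a paired domain and set the identity of organs in the embryo. The human genes described here are 8 of the 9 PAX genes, namely PAX2, PAX5, PAX8, PAX1, PAX3, PAX6, PAX7 and PAX9, taken by symbol from a table of 28813 genes. PAX4 was not among the chosen genes. They were followed by polyA RNA sequencing in MKL-1, a cell line grown from a human Merkel cell carcinoma, a neuroendocrine skin cancer, and positive for the Merkel cell polyomavirus. Cells received 3 µM EPZ011989, an inhibitor of the histone methyltransferase EZH2, in 1% ethanol for 6 days (3 libraries), and control cells received the vehicle, 1% ethanol, for 6 days (3 libraries). The same pair of groups was taken at 12 days (3 libraries each), and medium with the agent or the vehicle was renewed every 3 days. All 12 libraries come from this line. Nothing in the labels states that replicates were grown as separate cultures, so the p-values reflect the scatter among libraries of a group, possibly technical only.

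EZH2 is the enzyme of the Polycomb complex PRC2, which keeps developmental genes silent by methylating histone H3, and PAX genes are among the developmental genes that carry this mark in many cell types. PAX2, PAX5 and PAX8 form a subgroup with a paired domain, an octapeptide and a partial homeodomain. PAX2 acts in the kidney, inner ear, eye and midbrain-hindbrain boundary, PAX5 in B cell commitment and the midbrain-hindbrain boundary, and PAX8 in thyroid and kidney. PAX3, PAX6 and PAX7 have a full homeodomain, whereas PAX1 and PAX9 have none.

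The libraries held 15994997 to 20866370 estimated reads each, and 3 reads of a gene in a library corresponded to 0.148 to 0.194 CPM (counts per library total scaled by TMM, as edgeR gives it). EZH2 mRNA, which does not report on inhibition of the enzyme, had 137, 138 and 142 CPM in EPZ011989 cells and 156, 159.9 and 156 CPM in vehicle cells at day 6, and 60.8, 61.9 and 57.2 CPM in EPZ011989 cells and 182, 178 and 164 CPM in vehicle cells at day 12. At day 6, summed markers of Merkel cell carcinoma were 3215 to 3313 CPM in EPZ011989 cells and 3514 to 3864 CPM in vehicle cells. At day 12 the sums were 3598 to 4089 CPM in EPZ011989 cells and 2972 to 3493 CPM in vehicle cells. None of the 10 genes was at 0 reads in a group. By edgeR at an adjusted p under 0.05, 1 of them rose and 5 fell at day 6 (17.1% of all genes in each direction). At day 12, 3 rose and 4 fell (33.7% of all genes rose and 33.2% fell). Summed B cell markers, of 6 genes, did not exceed 1.27 CPM in any library, and those of other leukocytes did not exceed 1.53 CPM. Of the 6 B cell markers, 2 or 3 had 0 reads in each group, and MS4A1 had 0 reads in every group except vehicle at day 6. Fibroblast markers summed to 21.8 to 29.8 CPM in EPZ011989 cells and 14.9 to 19.99 CPM in vehicle cells at day 6, and to 17.9 to 19.4 CPM in EPZ011989 cells and 9.66 to 14.5 CPM in vehicle cells at day 12. Endothelial markers summed to 1.33 to 3.35 CPM, and the part of these cell types in the results was not tested.

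Among the PAX genes, PAX2 rose at both days, PAX9 and PAX6 fell at both days, PAX5 fell at day 12 in the authors' table, and PAX8 had no change that held in both ways of counting. Called means an adjusted p under 0.05. By edgeR's quasi-likelihood test on reads summed per gene, 3 of the 5 tested PAX genes were called at day 6, where 34.3% of all 15016 tested genes were called, and 3 of 5 at day 12, where 66.9% were. By this count the share of PAX genes called at day 12 is close to that of all genes. However, the count takes PAX5 from reads that cover only part of its level. By limma, a second test run on the authors' normalized values, all 5 PAX genes were called at day 12, where 60.8% of 14618 tested genes were. That number ranged from 4 to 5 in limma fits without a single library. Whether PAX genes were called more often than other genes was not tested. The median log2 fold change of all tested genes was -0.02 at day 6 and 0.02 at day 12.

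**Figure D1:**
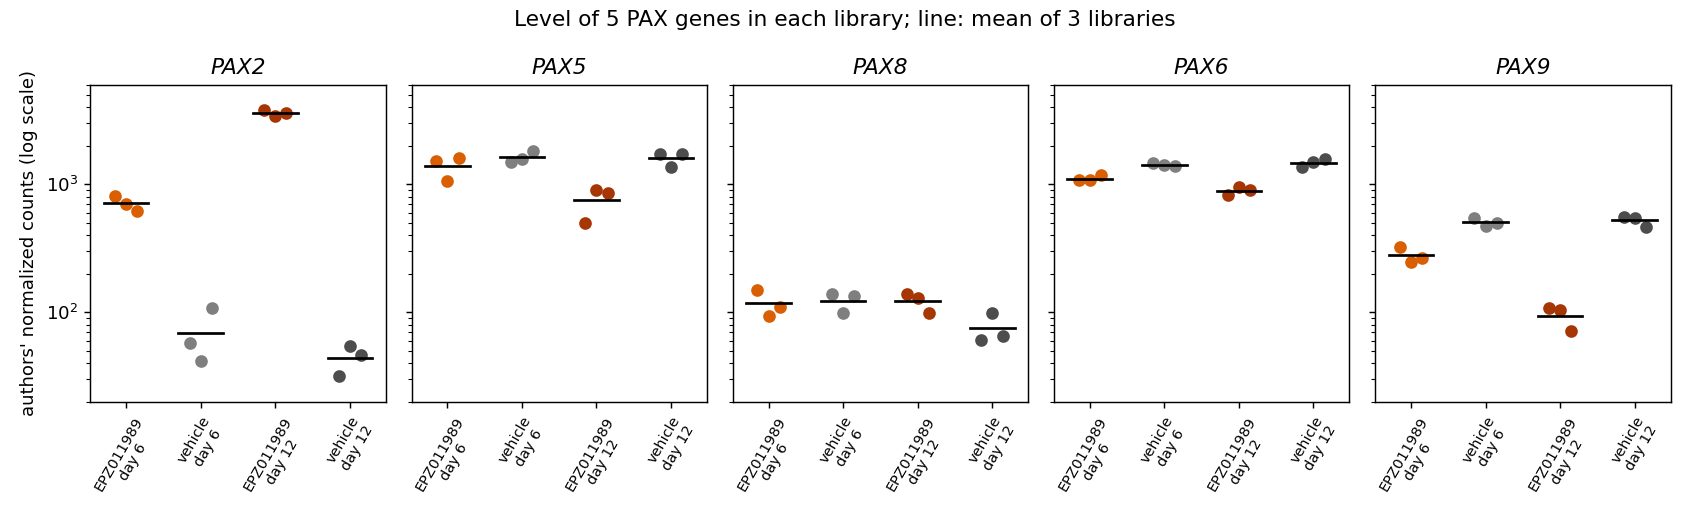
Level of 5 PAX genes in each library, in the authors' normalized counts on a log axis, with EPZ011989 left of vehicle at each day; points are libraries and lines the means of 3. PAX2 averaged 3637 in EPZ011989 cells and 44.1 in vehicle cells at day 12, and PAX9 averaged 94.3 in EPZ011989 cells and 523.5 in vehicle cells.

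PAX2 (ENSG00000075891.21, GRCh38 chromosome 10, 100735603 to 100829941, plus strand) had 40.0, 39.9 and 37.7 CPM in EPZ011989 cells at day 6, against 3.59, 3.37 and 3.75 CPM in vehicle cells. At day 12 it had 225, 203 and 218 CPM in EPZ011989 cells, against 1.48, 2.69 and 3.16 CPM in vehicle cells. At both days every EPZ011989 library lay above every vehicle library. The log2 fold change was 3.45 ± 0.13 (SE) at day 6 (edgeR adjusted p = 8.24e-11) and 6.45 ± 0.13 at day 12 (edgeR adjusted p = 4.11e-14). The effect was larger at day 12 than at day 6 by 3.00 ± 0.21 on the log2 scale (edgeR adjusted p = 3.81e-08 for the difference, where 47.7% of all genes were called). Between days, PAX2 was higher at day 12 than at day 6 within EPZ011989 cells by 2.46 ± 0.10 log2 (edgeR adjusted p = 6.21e-11, where 57.7% of all genes were called). In vehicle cells the day 12 to day 6 change of -0.54 ± 0.18 log2 did not pass (edgeR adjusted p = 0.0640, where 13.2% of all genes were called).

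Vehicle cells held few PAX2 reads. The libraries had 65, 62 and 71 reads at day 6 and 23, 48 and 49 reads at day 12, against 817, 622 and 653 reads in EPZ011989 cells at day 6 and 4402, 4034 and 3873 reads at day 12. In the authors' table PAX2 had 809.5, 708.5 and 622.7 in EPZ011989 cells at day 6, against 57.1, 41.8 and 108 in vehicle cells, and 3830.0, 3436 and 3646 in EPZ011989 cells at day 12, against 31.7, 54.2 and 46.5 in vehicle cells. At day 6 the vehicle libraries differed more from each other there than in CPM. The table's fold change by limma, on the log2(value + 1) scale, was 3.46 ± 0.28 at day 6 and 6.37 ± 0.28 at day 12.

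PAX9 (ENSG00000198807.12, chromosome 14, 36657568 to 36679715, plus strand), a factor of tooth, thymus and vertebral column development, fell. It had 17.3, 14.7 and 15.3 CPM in EPZ011989 cells at day 6, against 30.5, 26.6 and 28.7 CPM in vehicle cells. At day 12 it had 6.24, 5.38 and 4.05 CPM in EPZ011989 cells, against 30.8, 30.2 and 26.5 CPM in vehicle cells. No EPZ011989 library reached the lowest vehicle library at either day. The log2 fold change was -0.86 ± 0.12 at day 6 (edgeR adjusted p = 9.07e-05) and -2.48 ± 0.14 at day 12 (edgeR adjusted p = 6.31e-10), and the effects differed by -1.62 ± 0.18 (edgeR adjusted p = 5.31e-06). Nearly all PAX9 reads, a mean of 99.7% or more in each group, were on its protein-coding transcripts. Its exons share 481 bases with those of SLC25A21 on the other strand, a gene at no more than 2.31 CPM in any library.

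PAX6 (ENSG00000007372.22, chromosome 11, 31784779 to 31818062, minus strand), a factor of eye, brain and pancreatic islet development, fell by a smaller amount. It had 60.9, 63.7 and 63.7 CPM in EPZ011989 cells at day 6, against 84.0, 78.2 and 71.6 CPM in vehicle cells. At day 12 the values were 45.0, 50.9 and 58.6 CPM in EPZ011989 cells, against 86.4, 82.7 and 78.8 CPM in vehicle cells. The groups did not overlap at either day. The log2 fold change was -0.31 ± 0.09 at day 6 (edgeR adjusted p = 0.0115) and -0.68 ± 0.09 at day 12 (edgeR adjusted p = 6.31e-06), with a difference of -0.37 ± 0.12 (edgeR adjusted p = 0.0213). The day 6 call was lost without replicate 1 or replicate 2 of the day 6 vehicle group (edgeR adjusted p of up to 0.0563). PAX6 exons share 5241 bases with those of ELP4 on the other strand, and 191 and 107 bases with PAUPAR and AL035078.4. ELP4's log2 fold change was 0.04 ± 0.08 at day 6 and 0.16 ± 0.08 at day 12, neither called (edgeR adjusted p of 0.75 and 0.098). Without a stated strand, reads in the shared bases cannot be told apart.

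PAX5 (ENSG00000196092.12, chromosome 9, 36833275 to 37034185, minus strand) needed the authors' table. The reads matched by identifier to PAX5 reached 0.102 of the level in the authors' table, with the median gene at 1, and 0.0046 to 0.305 in single libraries. The other tested PAX genes lay between 0.979 and 1.04 over all libraries. In single libraries PAX2 ranged from 0.613 to 1.42, PAX8 from 0.753 to 1.35, PAX6 from 0.8905 to 1.175 and PAX9 from 0.924 to 1.06. The edgeR values for PAX5, -0.60 ± 0.82 at day 6 and 1.11 ± 0.91 at day 12, therefore cover part of its level in the authors' table. Neither passed (edgeR adjusted p of 0.619 and 0.294). Why the matched reads fell short was not tested. In the authors' table PAX5 had 1521, 1058 and 1608 in EPZ011989 cells at day 6, against 1496, 1587 and 1817 in vehicle cells, and the groups overlapped. At day 12 it had 502.8, 905.1 and 850.2 in EPZ011989 cells, against 1736, 1366 and 1719 in vehicle cells, with every EPZ011989 library below every vehicle library. By limma the change was -0.25 ± 0.20 at day 6 (limma adjusted p = 0.423, where 24.3% of 14618 tested genes were called) and -1.13 ± 0.20 at day 12 (limma adjusted p = 2.74e-04, where 60.8% were). The difference between days was -0.89 ± 0.29 (limma adjusted p = 0.0270, where 37.2% of all genes were called), and it was not called when replicate 1 or 3 of EPZ011989 at day 6, replicate 1 or 2 of vehicle at day 6, or replicate 1 or 3 of vehicle at day 12 was left out (limma adjusted p of up to 0.0682).

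PAX8 (ENSG00000125618.16, chromosome 2, 113215997 to 113278950, minus strand) had 6.37, 6.03 and 6.06 CPM in EPZ011989 cells at day 6, against 7.29, 5.97 and 8.03 CPM in vehicle cells. At day 12 it had 6.40, 6.13 and 4.83 CPM in EPZ011989 cells, against 4.63, 5.72 and 4.64 CPM in vehicle cells, so the groups overlapped at both days. The log2 fold changes of -0.21 ± 0.17 and 0.21 ± 0.18 did not pass (edgeR adjusted p of 0.398 and 0.310). In the authors' table the day 12 change was 0.71 ± 0.25 (limma adjusted p = 0.0263), with values of 138, 128 and 98.5 in EPZ011989 cells and 60.9, 99.5 and 65.1 in vehicle cells. That call was lost without replicate 1 or 2 of EPZ011989 or replicate 1 or 3 of vehicle at day 12. With the mean transcript length of each library as an offset, edgeR gave 0.70 ± 0.26 on the reads (edgeR adjusted p = 0.0374).

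**Figure D2:**
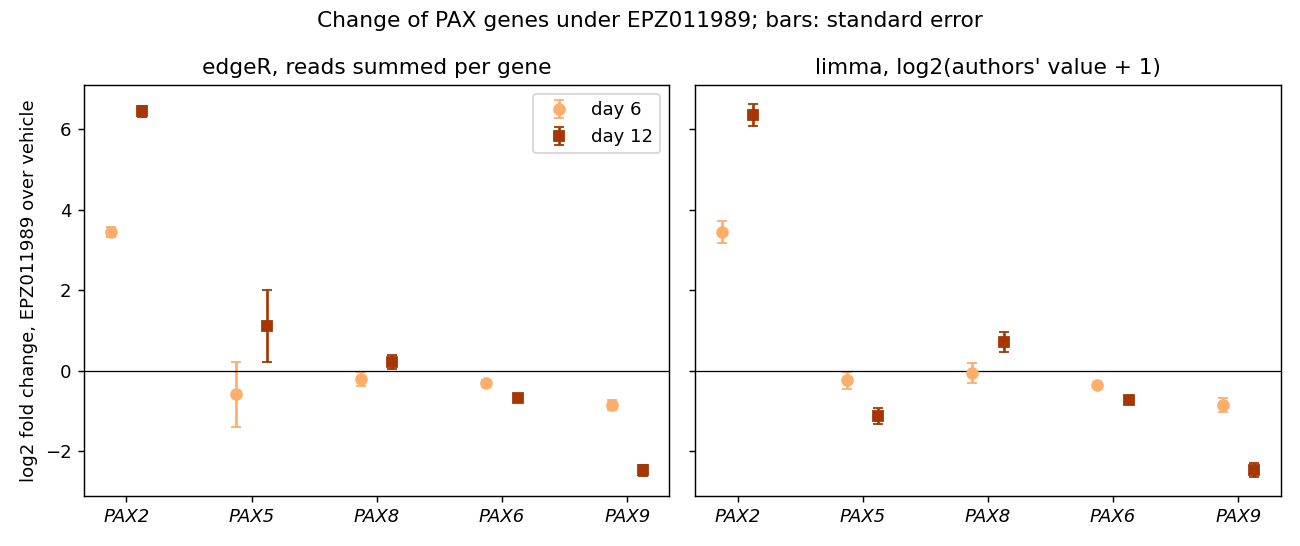
Log2 fold change of 5 PAX genes, EPZ011989 over vehicle, at day 6 (circles) and day 12 (squares), with standard errors, by edgeR on summed reads (left panel) and by limma on the authors' table (right panel). PAX2, PAX6 and PAX9 have similar values in both panels, while PAX5 at day 12 is at 1.11 on the left and -1.13 on the right.

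PAX1, PAX3 and PAX7 could not be tested. Over all 12 libraries PAX1, a factor of vertebral column development, had 1 read, PAX3, of neural crest and muscle, had 3 reads, and PAX7, of muscle stem cells, had 8 reads. The largest number in a library was 1, 1 and 4 reads, and a change in these genes was not detectable at this depth. The authors' values of these genes did not exceed 1.71 in any library.

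The order of the PAX genes was read in TPM, which divides reads by transcript length. In EPZ011989 cells at day 6 the order was PAX6 with 34.7 ± 1.96, PAX2 with 23.5 ± 3.05, PAX9 with 7.70 ± 1.12 and PAX8 with 5.69 ± 1.39 TPM. In vehicle cells at day 6 it was PAX6 with 43.5 ± 1.48, PAX9 with 13.6 ± 1.06, PAX8 with 5.77 ± 1.04 and PAX2 with 2.22 ± 1.12 TPM. At day 12 PAX2 stood first in EPZ011989 cells with 126.9 ± 7.31 TPM, ahead of PAX6 with 29.6 ± 2.12, PAX8 with 6.18 ± 1.07 and PAX9 with 2.75 ± 0.61 TPM. In vehicle cells at day 12 PAX6 led with 45.4 ± 3.80, then PAX9 with 14.1 ± 1.34, PAX8 with 3.54 ± 1.01 and PAX2 with 1.43 ± 0.38 TPM (SD, n = 3 throughout). PAX9 and PAX8 overlapped in EPZ011989 cells at day 6, and every other neighbouring pair named here was apart in all libraries. PAX5 averaged 3.63 and 1.73 TPM in EPZ011989 cells at days 6 and 12 and 5.11 and 2.96 TPM in vehicle cells, from its matched transcripts alone, so its place is not known.

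PAX2 was set against each of its close paralogues within a library, so that library size cancels. In the authors' table the log2 ratio of PAX2 to PAX5 was -0.91, -0.58 and -1.37 in EPZ011989 cells at day 6, against -4.69, -5.21 and -4.06 in vehicle cells. At day 12 it was 2.93, 1.92 and 2.10 in EPZ011989 cells, against -5.73, -4.63 and -5.18 in vehicle cells. The groups did not overlap at either day. Within a gene the authors' values kept a nearly fixed ratio to TPM, between 28.5 and 31.3 over the libraries for PAX2. For PAX8 the ratio lay between 19.6 and 21.5. Because it differs between genes, the sign of a log2 ratio does not rank them. The mean shift over both days was 5.60 log2 (exact permutation within days, two-sided p = 0.005, the smallest that the 400 arrangements allow), and from reads, with PAX5 in part, it was 4.63 log2. From reads the log2 ratio of PAX2 to PAX8 was 2.65, 2.72 and 2.63 in EPZ011989 cells at day 6, against -1.02, -0.82 and -1.09 in vehicle cells, and 5.13, 5.04 and 5.49 in EPZ011989 cells at day 12, against -1.63, -1.08 and -0.55 in vehicle cells. Its shift was 4.97 log2 (exact permutation within days, two-sided p = 0.005). Since PAX2 alone separated the groups at both days, the permutation p-values of both ratios add little to its rise.

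**Figure D3:**
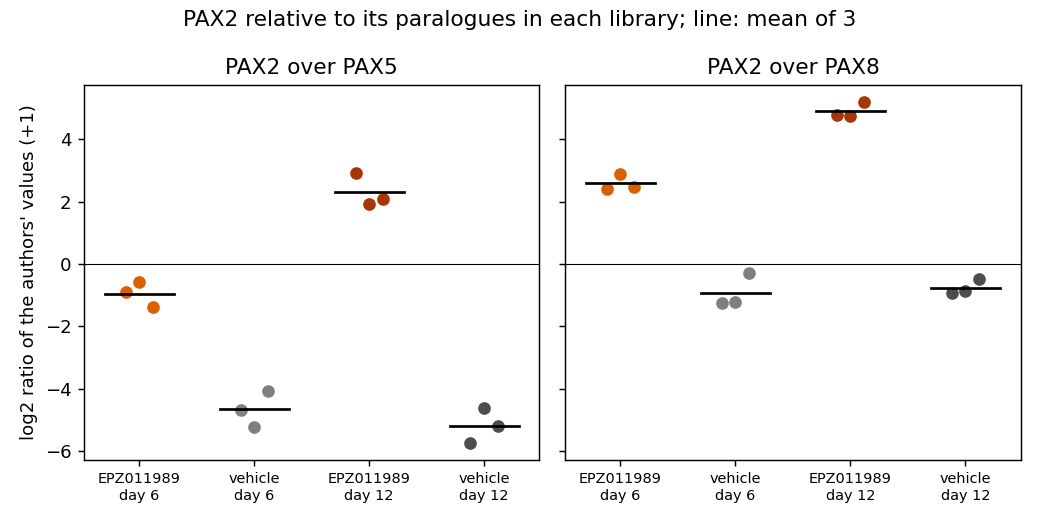
Log2 ratio of PAX2 to PAX5 (left) and to PAX8 (right) in each library, from the authors' values with 1 added; points are libraries, lines the means of 3, and the thin line marks a ratio of 0 on the log2 scale. The ratio to PAX5 averaged 2.32 in EPZ011989 cells and -5.18 in vehicle cells at day 12.

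Reads of these paralogues could be confused where their transcripts hold the same bases, so the longest identical stretches of their annotated transcripts are shown, in capitals throughout because all bases are shared.
PAX2 and PAX5: TGTGTCAGCAAAAT
PAX2 and PAX8: AGAATCATCCGGACCAAAGT
PAX5 and PAX8: ACCATGTTTGCCTGGGAGATC
The stretches are 14, 20 and 21 bases long. In PAX2 the first lies at chromosome 10, 100749892 to 100749905, and the second crosses a splice junction.

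PAX2 is annotated with 9 transcripts in the files, of which 8 had reads and 7 were tested. They differ by a cassette exon of 69 bases (chromosome 10, 100786943 to 100787011), a late exon of 83 bases (100824902 to 100824984) and an internal first exon (100748850 to 100749914). The exons are shown, as the sequences that separate the transcripts, in capitals between 15 bases of the neighbouring exons, from the plus strand of GRCh38.
69-base exon: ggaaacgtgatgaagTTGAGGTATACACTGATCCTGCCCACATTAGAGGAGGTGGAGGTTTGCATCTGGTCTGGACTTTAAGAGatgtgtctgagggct
83-base exon: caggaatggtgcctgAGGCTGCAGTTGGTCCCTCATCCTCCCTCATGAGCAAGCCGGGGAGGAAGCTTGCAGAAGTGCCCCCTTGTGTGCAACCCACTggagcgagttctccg

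In the estimated reads, the PAX2 rise was spread over several transcripts. The reads given per transcript are estimates that split exons shared between transcripts. The p-values of transcripts, here and below, leave out the error of that split. The longer transcript without either exon (ENST00000355243.8) had 367, 190.3 and 217 reads in EPZ011989 cells at day 6, against 22.2, 59.6 and 46.2 reads in vehicle cells, and 1360.0, 1787 and 1476 reads in EPZ011989 cells at day 12, against 0, 5.90 and 0 reads in vehicle cells. The transcript with the 69-base exon (ENST00000428433.5) had 94.8, 191 and 116 reads in EPZ011989 cells at day 6, against 0 reads in all 3 vehicle libraries, and 1104, 682 and 535 reads in EPZ011989 cells at day 12, against 0, 2.91 and 43.1 reads in vehicle cells. Every EPZ011989 library lay above every vehicle library. The shorter transcript without either exon (ENST00000361791.7) had 161, 149 and 146 reads in EPZ011989 cells at day 6, against 35.5, 0 and 0 reads in vehicle cells, and 857, 790.4 and 1038 reads in EPZ011989 cells at day 12, against 16, 25.1 and 0 reads in vehicle cells. It was called at day 12 (edgeR adjusted p = 0.0219), though not without replicate 1, 2 or 3 of EPZ011989 or replicate 1 or 2 of vehicle at day 12. At day 6 it was not called (edgeR adjusted p = 0.275), except without replicate 1 of vehicle at day 6, the library that held the 35.5 reads. The transcript with the 83-base exon (ENST00000370296.6) had 28.6, 0 and 55.4 reads in EPZ011989 cells at day 6, overlapping the 0 reads of all 3 vehicle libraries, and was not called (edgeR adjusted p = 0.209). It had 317, 61.01 and 202 reads in EPZ011989 cells at day 12, against 0 reads in all 3 vehicle libraries. The transcript with the 69-base exon took 11.6, 30.6 and 17.8% of PAX2 reads in EPZ011989 cells at day 6 and 25.1, 16.9 and 13.8% at day 12. In vehicle cells, with few reads, the leading transcript differed from library to library, and the same transcript took 0, 6.06 and 88.05% at day 12.

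Of the 7 tested PAX2 transcripts 3 rose at day 6 and 6 at day 12 (edgeR across 60888 transcripts, of which 2.02% rose at day 6 and 8.63% at day 12). The transcript with the internal first exon (ENST00000554172.2) rose by 3.71 ± 0.59 log2 at day 6 (edgeR adjusted p = 0.00703) and by 5.81 ± 0.63 at day 12 (edgeR adjusted p = 1.04e-04), and it passed without any single library. At day 6 the call of ENST00000428433.5 was lost in 10 of the 12 edgeR fits without a single library, and that of ENST00000355243.8 in 9. The day 6 count was 1 in place of 3 without replicate 1, 2 or 3 of EPZ011989 at either day or replicate 2 of vehicle at day 6. At day 12 the call of ENST00000370296.6 was lost in 7 of the 12 fits, and that of ENST00000428433.5 in 4. The day 12 count was 3 in place of 6 without replicate 1 or 2 of EPZ011989 at day 12. Protein-coding transcripts held a mean of 94.3% of PAX2 reads in EPZ011989 cells and 95.7% in vehicle cells at day 6, and 94.1% in EPZ011989 cells and 94.3% in vehicle cells at day 12.

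**Figure D4:**
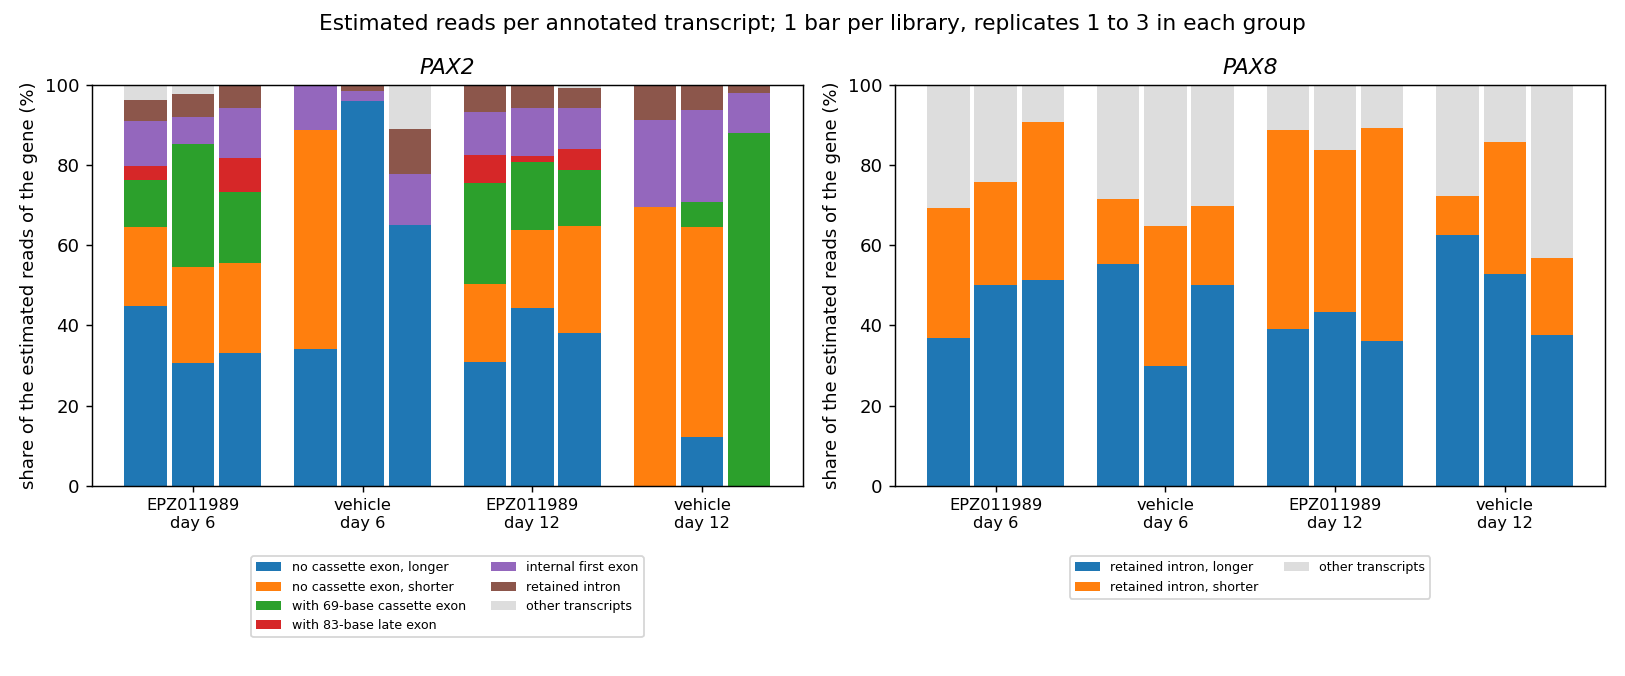
Share of the estimated reads of PAX2 (left) and PAX8 (right) on each annotated transcript, in percent, with 1 bar per library and replicates 1 to 3 within a group. The same transcript leads PAX2 in the EPZ011989 libraries, about level with another in replicate 2 of day 6, while the leading one differs among the vehicle libraries, which held 23 to 71 reads, and 2 retained-intron transcripts take most of each PAX8 bar.

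None of the tested transcripts of PAX8 (4 of 13 listed) or PAX5 (3 of 16 listed) was called at either day by edgeR on all 12 libraries. The PAX5 transcript ENST00000524340.5 was called at day 12, as falling, in 1 of 12 edgeR fits without a single library. Most PAX8 reads lay on transcripts annotated as retaining an intron. With the reads of a group pooled, the share was 78.0% in EPZ011989 cells and 70.5% in vehicle cells at day 6. At day 12 it was 87.0% in EPZ011989 cells and 73.4% in vehicle cells. The libraries overlapped at both days, with 88.8, 83.8 and 89.2% in EPZ011989 cells and 72.2, 85.8 and 56.9% in vehicle cells at day 12. The shorter of the 2 main retained-intron transcripts (ENST00000467778.5) had 61.95, 49.4 and 45.7 reads in EPZ011989 cells at day 12, against 7, 33.5 and 14.0 reads in vehicle cells (1.36 ± 0.51 log2, edgeR adjusted p = 0.105). It was called as rising in 1 of 5 alternative fits, and in 1 of 12 edgeR fits without a single library (edgeR adjusted p = 0.0272). Exons of PAX8-AS1, an RNA gene on the other strand, share 685 bases with PAX8 exons, of which 234 lie in this transcript and 244 in the longer one (ENST00000485840.1). No PAX8-AS1 transcript is among the listed transcripts, and without a stated strand its reads cannot be told apart from those of PAX8.

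PAX proteins act with cofactors, which were read from lists. Of 11 tested genes of a list of PAX2 partners (SIX4, EYA1, DACH1 and their relatives), transcription factors and phosphatases that work with PAX2 in kidney and ear, 6 rose and none fell at day 6 (17.1% of all genes rose), and 6 rose and 3 fell at day 12 (33.7% rose and 33.2% fell). SIX4 rose by 1.86 ± 0.09 log2 at day 6 and 2.74 ± 0.09 at day 12 (edgeR adjusted p of 2.0e-09 and 3.5e-12). These counts cover only the genes that passed the filter on low reads.

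Groucho/TLE proteins include corepressors that PAX2 and PAX5 bind. Of 6 TLE genes, 3 rose (TLE2, TLE4 and TLE6) and 1 fell at day 6 (17.1% of all genes rose and 17.1% fell). At day 12, 5 rose (TLE2, TLE3, TLE4, TLE5 and TLE6) and 1 fell (33.7% and 33.2%). Whether each of these proteins is a corepressor of PAX2 or PAX5 was not tested. The day 6 number that rose ranged from 0 to 2 in limma fits of the authors' table without a single library. TLE4 rose by 1.41 ± 0.15 log2 at day 6 and TLE2 by 1.58 ± 0.09 at day 12 (edgeR adjusted p of 5.2e-06 and 1.1e-09), while TLE1 fell by 0.65 at day 6 and by 1.18 at day 12. PTIP, encoded by PAXIP1, links PAX2 to an H3K4 methyltransferase complex. Of the 11 genes of that complex and its partners none rose and 5 fell at day 6 (17.1% of all genes in each direction). However, the number that fell was 0 with transcript lengths as an offset and ranged from 0 to 6 without single libraries, so nothing is read from it. At day 12, 2 rose and 7 fell (33.7% of all genes rose and 33.2% fell), with 0 to 2 and 4 to 7 over the same alternatives. PAXIP1 had 55.4 ± 1.94 CPM in EPZ011989 cells and 67.1 ± 4.24 CPM in vehicle cells at day 6, and 33.8 ± 2.62 CPM in EPZ011989 cells and 75.2 ± 6.68 CPM in vehicle cells at day 12.

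Kidney and ear genes that work beside PAX2 and PAX8 were mostly untested, since 12 of 23 had too few reads. Of the 11 tested, 6 rose and none fell at day 6 (17.1% of all genes rose), and 8 rose and 1 fell at day 12 (33.7% rose and 33.2% fell). A gene low in every group was dropped, while a gene high in EPZ011989 cells alone was kept, so the counts do not support a direction for the list. FGF10, a growth factor of kidney and ear, was kept with 177 reads over the EPZ011989 libraries and 31 reads over the vehicle libraries at day 6. SALL1, a zinc finger factor of kidney development, had 8.20 ± 0.86 CPM in EPZ011989 cells and 1.87 ± 0.51 CPM in vehicle cells at day 6, and 19.3 ± 1.02 CPM in EPZ011989 cells and 1.68 ± 0.61 CPM in vehicle cells at day 12. DLX5, a homeobox factor of the ear, rose by 3.56 ± 0.25 log2 at day 6 and 3.76 ± 0.26 at day 12 (edgeR adjusted p of 6.8e-08 and 9.4e-09). NCAM1, an adhesion molecule, was the gene that fell at day 12, by 0.82 log2, while limma called 2 falling. The midbrain-hindbrain list, with 4 of 9 genes tested, has the same limit. In it 3 genes rose at day 6, or 1 by limma without replicate 3 of vehicle at day 6, and 4 rose at day 12. GBX2, a homeobox factor of the hindbrain, had 53.3 ± 2.10 CPM in EPZ011989 cells and 6.38 ± 2.35 CPM in vehicle cells at day 12.

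The counts in the other lists are small, and in each direction 17.1% of all genes were called at day 6 and 33.7% (rose) or 33.2% (fell) at day 12, so nothing particular to these lists is read from them. Of 5 thyroid genes 1 rose at day 6, and 2 rose and 2 fell at day 12, with NKX2-1, the thyroid and lung homeobox factor, at 1.83 ± 0.21 log2 at day 12. Of 22 B cell genes tied to PAX5, 6 were tested. At day 6, 1 rose and 2 fell, and at day 12, 2 rose and 3 fell. CD79B, a B cell receptor subunit, had 1.91 ± 0.40 CPM in EPZ011989 cells and 8.91 ± 0.27 CPM in vehicle cells at day 6 (-2.22 ± 0.31 log2, edgeR adjusted p = 7.1e-05). Among 8 tested partners of PAX3 and PAX7, 3 rose and 3 fell at day 6 and 4 rose and 3 fell at day 12. Among 9 partners of PAX6, 3 rose and 1 fell at day 6 and 3 rose and 3 fell at day 12, where LHX2, a forebrain and eye homeobox factor, fell by 1.26 log2. Among 5 partners of PAX1 and PAX9, 1 rose and 1 fell at day 6 and 2 rose and 2 fell at day 12. Of 11 PRC2 subunit genes 1 rose and 3 fell at day 6, and 2 rose and 7 fell at day 12.

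The genes whose profile over the 12 libraries was nearest to PAX2, by the root mean square difference of centred log2 CPM over 14194 genes, were CIB2 (0.231), TMEM132E (0.315), ESPNL (0.340), CDH15 (0.346) and TNC (0.396). CIB2, a calcium-binding protein of hair cells, had 36.5 ± 2.09 CPM in EPZ011989 cells and 3.21 ± 0.47 CPM in vehicle cells at day 6, and 145.7 ± 5.55 CPM in EPZ011989 cells and 2.22 ± 0.69 CPM in vehicle cells at day 12. The nearest to PAX6 were MSL2 (0.0778), TRPM7 (0.0815) and GNE (0.0828), and the nearest to PAX9 were PHLDB2 (0.131), CENPI (0.151) and ESRP1 (0.164). All of these were found by likeness to the member and carry no test.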

How the data were processed

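Each of the 12 libraries came with expected counts and TPM per transcript, deposited by the authors. Salmon 1.2.0 is the quantifier, per the submitters' processing notes, and these list FastQC, DESeq2 and hg38 as well. The authors also deposited a table with a normalized signal per gene for the whole series. Its normalization is not stated in the labels or the table. Transcripts were assigned to genes of GENCODE 29 (GRCh38) by identifier without version, and 168219 of 179883 (93.5%) matched. The expected counts of each gene's transcripts were added up, then rounded, for 35329 genes. The remaining transcripts held 3.08 to 3.58% of reads.

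Genes were filtered with filterByExpr, scaled by TMM and tested with edgeR 4.0.16 (R 4.3.3), quasi-likelihood, on all 12 libraries in 1 fit of the 4 groups, with Benjamini-Hochberg adjustment. SE is the log2 fold change divided by the root of F. limma 3.58.1 was run on log2(authors' value + 1) for genes with a value of 10 or more in at least 3 libraries. Because that scale adds 1, it understates changes of low genes. Ratios of reads had 0.5 read added. The scripts were tested on simulated data.

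The members, the lists and the tests were chosen with earlier results of these data known. The rule for named genes took all members, up to 2 genes of each list with the smallest p at each day, EZH2 and the nearest profiles. Values are given for only some of the list genes it took. Some genes were named outside this rule, among them FGF10, DACH1, SIX2, SIX3 and the marker MS4A1. ELP4 and SLC25A21 were added after the values were seen. A gene that the rule names is not reported here. DESeq2 1.42.0 and the other alternatives are described in the closing section. Floors cover counting error only.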

Additional observations from a re-analysis of the deposited data

Results flagged for a closer look

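The effect of EPZ011989 differed between days by the interaction test for PAX2 (3.00 log2, edgeR), PAX6 (-0.37, edgeR), PAX9 (-1.62, edgeR) and PAX5 (-0.89, limma on the authors' table). All 4 had the larger effect at day 12. By limma the PAX6 difference was lost without replicate 1 of EPZ011989 at day 12 or replicate 3 of either group at day 6 (limma adjusted p of up to 0.0582). The PAX5 difference was lost in 6 of the 12 fits that left out a single library.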

How the results depend on the processing

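PAX2, PAX9 and PAX6 kept their direction at both days under the alternatives tried (DESeq2 size factors, library totals, no low-count filter, at least 1 CPM in 3 libraries, the DESeq2 test, only the libraries of the contrast, transcript lengths as an offset, limma with 1 and 5 added, the replicate block, and without each library). PAX2 stayed between 3.37 and 3.50 log2 at day 6 and between 6.24 and 6.52 at day 12; with the replicate block it was 3.46 and 6.45. Without single libraries it ranged from 3.16 to 3.83 and from 6.15 to 6.67. PAX5 reversed at day 12 from reads to the authors' table, to -1.13 with 1 added, -1.13 with 5 added and -1.13 with the replicate block, and from -1.29 to 2.43 without single libraries (by limma, -0.86, -1.24 and -1.24 without replicates 1 and 3 of EPZ011989 and 2 of vehicle at day 12, and -1.08 without vehicle replicate 3). Its difference between days became -0.89, -0.88 and -0.89, and -1.07 to 3.00 without single libraries (by limma, -0.62, -1.04 and -0.997 without replicates 1, 2 and 3 of EPZ011989 at day 12, -0.998 without vehicle replicate 2 of day 12 and -0.96 without vehicle replicate 3 of day 6). The PAX5 read value covers part of its level in the authors' table, and the reason was not tested. The count of PAX genes called at day 12 was 5 with limma, with 1 or 5 added or with the replicate block, and 3 to 5 without single libraries. For the difference between days it ranged from 2 to 5 without single libraries. In vehicle cells between days, PAX2 was called by the DESeq2 test (-0.53) and with no low-count filter (-0.55), where the counts were 1 and 2, and ranged from -0.74 to -0.29 from reads and from -0.85 to -0.18 by limma without single libraries (called without vehicle replicate 3 of day 12), the count from 0 to 2. Transcripts called at day 6 were 5 by the DESeq2 test, 1 with the replicate block and 1 to 3 without single libraries. At day 12 they were 3 to 6 without single libraries and 5 to 7 over the other alternatives. Same-numbered EPZ011989 and vehicle replicates of a day did not deviate together (r from -0.083 to 0.110). This does not settle whether they were paired in culture, and the main fit did not pair them. Apart from the day 6 transcripts, the replicate block in edgeR changed no count of calls by over 1.5 times. PAX8 at day 12 was not called by limma without replicates 1 or 2 of EPZ011989 or replicates 1 or 3 of vehicle at day 12. Genes called over all genes at day 6 were 3242 with transcript lengths as an offset against 5144, and in vehicle between days 89 with that offset, 142 and 137 with limma and 1 or 5 added, 217 with limma and the block, and 16 with only the libraries of the contrast, against 1975; without single libraries the last ranged from 184 to 4185. The cause of these differences was not tested. The limma fits with the block or without a library were chosen after seeing the data.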
